A study of Mus musculus with 629 samples.

Results

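Csf1r, Cx3cr1, Tgfb1, Tgfbr1, Tgfbr2, Smad3, Smad7 and Nrros were followed in single macrophages and microglia of the adult mouse brain. These 8 genes, of 53546 gene symbols in the deposited count table, were taken by name because they belong to the receptors and the TGF-beta pathway on which brain macrophages depend, and all 8 had a row. The table held 629 cells: 400 labelled macrophages (211 wild-type, 70 heterozygous and 119 knockout for Notch3), 215 labelled microglia (79, 58 and 78 in the same order) and 14 of a type named only 7. The 3 genotypes are written WT, Het and KO. All mice were adult C57BL/6 of a reporter line that carried SM22-Cre, a recombinase driven by a smooth muscle promoter, with a Rosa26-stop-tdTomato allele, so the WT cells carried those alleles too. Single cells were collected by FACS in 384-well plates, and libraries were made by SMART-seq2, a full-length method without molecular identifiers. How macrophages and microglia were gated, and which cells came from which animal, is not stated in the labels.

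Csf1r is the receptor tyrosine kinase for colony-stimulating factor 1 and interleukin 34 and is needed for survival of microglia and other macrophages. Cx3cr1 is the receptor for fractalkine, a chemokine of neurons. TGF-beta is released in a latent form, which Nrros (also called LRRC33) tethers to the surface of myeloid cells until an integrin frees it. The freed ligand binds Tgfbr2, which recruits and phosphorylates the kinase Tgfbr1. Tgfbr1 then phosphorylates Smad2 and Smad3, which act on genes in the nucleus, and among the genes they induce is Smad7, an inhibitor of the receptor. In microglia this pathway is known to maintain the mature expression state.

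The receptor pair Tgfbr1 and Tgfbr2 is shown with its upstream sequence because its members took different levels in the cell types, and Cx3cr1 because its level also separated them. Each run is the 250 bases before a RefSeq transcription start, written 5′ to 3′ on the gene's own strand, in GRCm38.p6. Capitals mark the 6-letter words GAGGAA (the core of the box bound by the myeloid factor PU.1), GGAAGT (an ETS core) and CAGACA (a SMAD-binding element), searched on both strands, so that GGAAGT on the opposite strand reads ACTTCC.
Tgfbr1, chr4:47352972-47353221, + strand: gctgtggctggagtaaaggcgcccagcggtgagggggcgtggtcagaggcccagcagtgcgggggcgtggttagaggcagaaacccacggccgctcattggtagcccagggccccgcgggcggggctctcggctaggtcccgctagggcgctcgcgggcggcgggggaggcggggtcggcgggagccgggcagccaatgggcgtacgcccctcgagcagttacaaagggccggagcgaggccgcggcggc
Tgfbr1, second start, chr4:47385966-47386215, + strand: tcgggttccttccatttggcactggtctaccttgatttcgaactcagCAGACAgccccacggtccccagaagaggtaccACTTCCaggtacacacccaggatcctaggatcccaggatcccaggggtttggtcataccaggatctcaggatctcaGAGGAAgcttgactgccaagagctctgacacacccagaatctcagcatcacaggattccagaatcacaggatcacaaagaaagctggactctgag
Tgfbr2, chr9:116175364-116175613, - strand: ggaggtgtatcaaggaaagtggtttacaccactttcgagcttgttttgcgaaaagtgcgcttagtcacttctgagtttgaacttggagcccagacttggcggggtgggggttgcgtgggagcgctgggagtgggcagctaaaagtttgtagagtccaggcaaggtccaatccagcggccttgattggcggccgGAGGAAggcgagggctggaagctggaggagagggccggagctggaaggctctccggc
Cx3cr1, chr9:120068297-120068546, - strand: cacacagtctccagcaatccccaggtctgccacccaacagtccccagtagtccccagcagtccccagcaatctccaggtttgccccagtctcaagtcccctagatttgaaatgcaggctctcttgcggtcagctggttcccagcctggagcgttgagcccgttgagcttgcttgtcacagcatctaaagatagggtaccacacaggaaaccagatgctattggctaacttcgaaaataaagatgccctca
The first Tgfbr1 window was 74.8% G and C and held none of the words. The window of the second Tgfbr1 start held CAGACA at 203, GGAAGT on the opposite strand at 171 and GAGGAA at 95 bases before that start. Tgfbr2 held GAGGAA 57 bases before its start, and the Cx3cr1 window held none of the 3 words. Among 32851 windows of the same length, 23.3% held GAGGAA, 19.7% GGAAGT and 17.1% CAGACA, so single matches are common. The longer words GAGGAAGT, in which GAGGAA and GGAAGT overlap (2.44% of windows), and GTCTAGAC, a SMAD palindrome (0.167%), occurred in none of the 7 windows found for 6 of the 8 genes. Those windows also covered Tgfb1, Smad3 and Nrros, which held none of the words. A match is a description of the letters, not of binding.

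Levels are given as CPM, a gene's counts scaled to a fixed total of all gene counts of a group without Rn18s, the 18S ribosomal RNA, and without ERCC spike-ins. A pool is the cells of 1 genotype on 1 plate, and pools of at least 10 cells gave 8 per cell type: 3 of WT, 3 of Het and 2 of KO. Because no label names an animal, a genotype within a cell type counts as 1 sample here. No test was therefore run, and the pools show the spread over plates. Intervals are exact 95% Poisson or Clopper-Pearson intervals and cover counting error only, and since reads can be PCR copies of 1 molecule they may be too narrow. A gene was counted as measured at 20 CPM with a count in 25% of cells of the same group, which 6 of the 8 genes reached in macrophages or microglia and Tgfb1 and Smad7 did not. With all cells of a type together, Smad3 reached it in microglia alone. Among the genotypes of macrophages it did so in WT, at 53.3 CPM and 25.6% of cells.

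Depth differed between pools. The median total per cell without Rn18s ran from 109021 to 891311 in macrophage pools and from 191482 to 1002717 in microglia pools, with plate 056s the deepest in both. Rn18s took 17.2% to 54.9% of the counts in macrophage pools and 16.4% to 56.4% in microglia pools. Notch3 itself reached 0.680 CPM over macrophages and 0.0413 CPM over microglia, with Het macrophages at 0, so it could not check the genotype labels. The cell type labels went with their markers: 10 microglia markers added up to 6099 CPM over macrophages and 32650 CPM over microglia, and 12 perivascular macrophage markers to 29901 and 13070 CPM. All 12 were therefore also present in microglia, and none of either list was at 0 in either type. Most of the microglia marker sum in macrophages came from Fcrls, at 4571 CPM. Summed markers of the other cell types were at most 223 CPM in both types for monocytes and neutrophils, lymphocytes, mural cells, fibroblasts, astrocytes and neurons. Those of endothelium (503 CPM in macrophages and 580 in microglia, mostly Bsg) and of oligodendrocytes (699 and 477 CPM, led by Mbp) were higher.

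Microglia had more Tgfbr1, Cx3cr1 and Smad3 than macrophages, by 8.63-fold, 3.45-fold and 2.72-fold over all cells, and Smad7 had counts in 23.7% of microglia but 1.75% of macrophages. Csf1r was 1.32-fold higher in microglia, and Tgfbr2 and Nrros were slightly higher in macrophages. The ligand gene Tgfb1 was low in both. A gene was called higher or lower when all cells summed differed at least 2-fold and every pool had the same direction. Of the 6 measured genes, 3 were called higher in microglia (Cx3cr1, Tgfbr1 and Smad3), against 4.67% of 6230 measured genes, and 0 were called lower, against 1.81%. Over all measured genes the median log2 ratio was -0.01. The labels of cell type probably came from these counts themselves, so the differences describe the labelled groups.

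**Figure D1:**
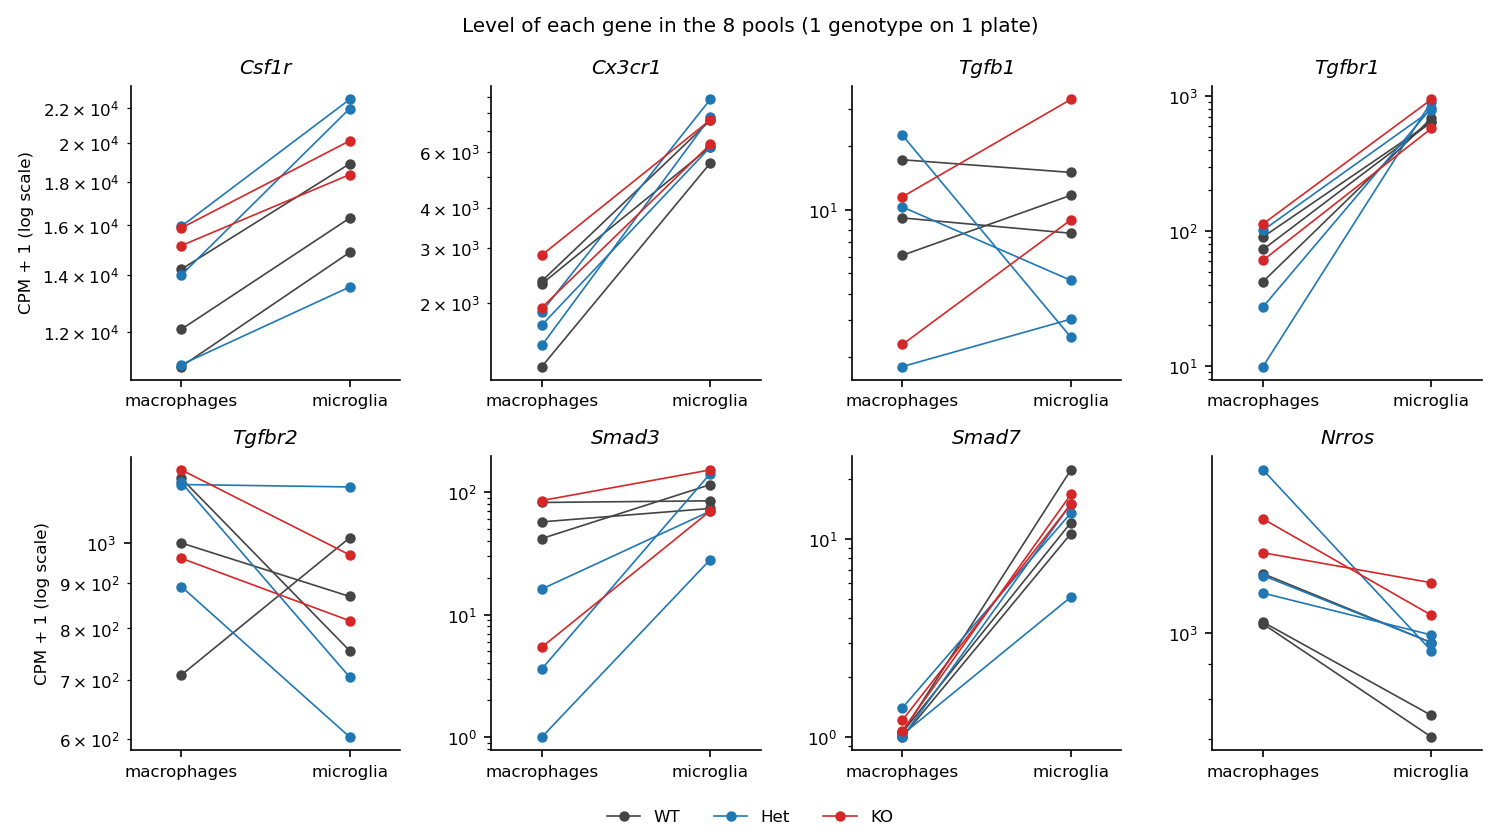
CPM + 1 on log axes for each of the 8 genes in macrophages and microglia, with 1 line for each of the 8 pools (WT, Het and KO by colour). Every line goes up for Csf1r, Cx3cr1, Tgfbr1, Smad3 and Smad7, every line goes down for Nrros, and the axes differ between panels.

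Csf1r was the most abundant of the 8 genes in both types and had counts in all 400 macrophages and all 215 microglia. Its macrophage pools ran from 10914 CPM over a median of 14099 to 15961 CPM, and its microglia pools from 13542 over 18640 to 22521 CPM. The 2 ranges overlapped, but inside each pool microglia were higher, by 1.21-fold to 1.57-fold. Over all cells Csf1r was at 12891 CPM (95% interval 12870 to 12912) in macrophages and 17019 CPM (16989 to 17049) in microglia. In the annotation used, 15.1% of the exon bases of Csf1r overlap Hmgxb3 on the opposite strand, and whether the counting used strand is not stated.

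Cx3cr1 separated the types. Macrophage pools ran from 1261 CPM over a median of 1910 to 2840 CPM, and microglia pools from 5550 over 6968 to 8827 CPM. The lowest microglia pool was thus above the highest macrophage pool, and the ratio inside pools ran from 2.68-fold to 5.26-fold. Over all cells the levels were 2044 CPM (2036 to 2053) and 7058 CPM (7039 to 7077). Cx3cr1 was still a common macrophage transcript, with counts in 97.8% of macrophages and in every microglial cell. Only 1.73% of its exon bases overlap another gene, Gm33858, on the opposite strand.

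Nrros, the anchor of latent TGF-beta, was slightly lower in microglia in all 8 pools. Its macrophage pools ran from 1030 over 1217 to 1735 CPM and its microglia pools from 702 over 967 to 1184 CPM, and the ranges overlapped. Over all cells Nrros was at 1154 CPM (1147 to 1160) in macrophages and 931 CPM (924 to 938) in microglia, a log2 ratio of -0.31. It was found in 99.3% of macrophages and 97.7% of microglia. Tgfb1, the ligand it holds, had counts in 14.5% of macrophages and 22.8% of microglia. Its pools ran from 0.809 over 8.72 to 21.5 CPM in macrophages and from 1.49 over 7.34 to 32.3 CPM in microglia. The direction was split, with 4 pools higher and 4 lower in microglia, and the log2 ratio over all cells went from -0.25 to 0.58 without plate 056s.

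The receptors differed from each other. Tgfbr1 ran from 8.90 over 65.8 to 112 CPM in macrophage pools and from 575 over 736 to 944 CPM in microglia pools. The pools of the 2 types lay far apart, and microglia were higher by 7.11-fold to 91.8-fold inside pools. Over all cells Tgfbr1 was at 83.4 CPM (81.7 to 85.0) in macrophages and 727 CPM (721 to 733) in microglia. Tgfbr2, its partner, ran from 707 over 1082 to 1209 CPM in macrophage pools and from 602 over 842 to 1157 CPM in microglia pools. These ranges overlapped. Tgfbr2 was lower in microglia in 7 of 8 pools, WT cells of plate 529s being the exception, and its log2 ratio over all cells was -0.36.

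Smad3, the transducer below the receptors, varied widely between pools. It ran from 0 over 28.0 to 84.2 CPM in macrophage pools and from 27.1 over 78.1 to 151 CPM in microglia pools. The ranges overlapped, and although microglia were higher in all 8 pools the log2 difference ran from 0.05 to 5.30. In the pool with the smallest difference, WT cells of plate 529s, Smad3 was at 81.2 CPM in macrophages, from 3 of 26 cells, and at 83.8 CPM in microglia. With edgeR's TMM factors these became 83.3 and 79.5 CPM, and without each pool's top cell 43.6 and 28.5 CPM, so the call of Smad3 ended under both. The log2 ratio over all cells was 1.44, and it was 2.06 on plates 056s, 059s and 060s alone and 1.02 on plates 524s, 529s and 530s alone.

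Smad7, the inhibitor that the pathway induces, had 7 counts in 7 of 400 macrophages and 980 counts in 51 of 215 microglia. That is 0.0602 CPM (0.0242 to 0.124) against 13.5 CPM (12.6 to 14.3). Macrophage pools ran from 0 to 0.405 CPM and microglia pools from 4.10 over 13.3 to 21.4 CPM, without overlap. On CPM + 1 the ratio was 13.7-fold, a scale that understates the change of a gene so low, and it was 3.65-fold on CPM + 5. Microglia did not reach 20 CPM, so Smad7 was not among the measured genes, and it was called higher in microglia when no floor was set and, with the floor kept, in cells chosen as clear by their markers.

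**Figure D2:**
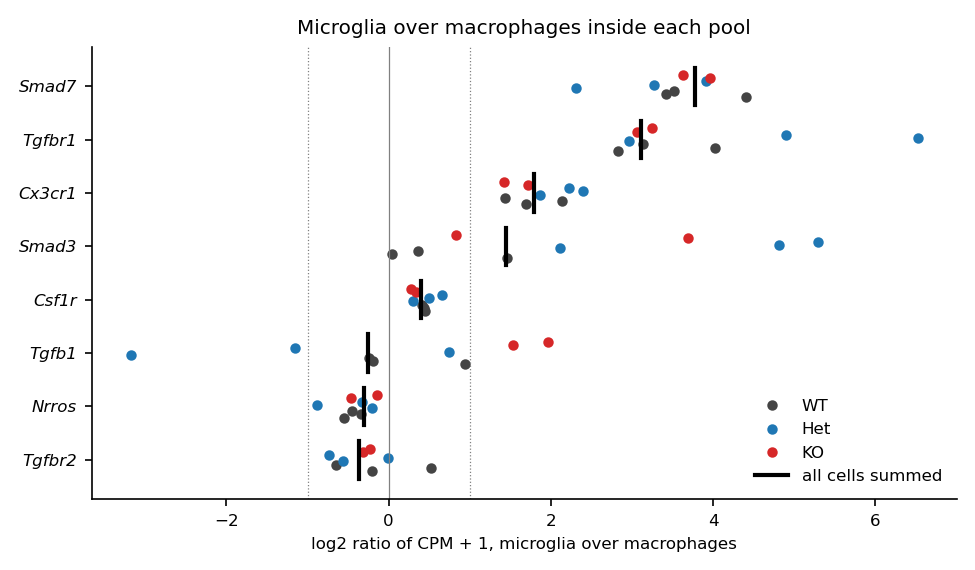
The log2 ratio of CPM + 1, microglia over macrophages, for each gene. Points are the 8 pools coloured by genotype, black bars are all cells summed, and dotted lines mark 2-fold. Tgfbr1, Cx3cr1 and Smad7 lie past 2-fold in every pool, Smad3 spreads from 0.05 to 5.30, and Csf1r, Nrros and Tgfbr2 lie inside the lines.

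Set on a common scale of CPM per kilobase of exon, the order of the 8 genes was almost the same in both types. In macrophages it ran Csf1r 2233, Cx3cr1 454, Nrros 276, Tgfbr2 127, Tgfbr1 12.8, Smad3 6.42, Tgfb1 2.33 and Smad7 0.0133 CPM per kilobase. The pool ranges of Cx3cr1 and Nrros overlapped there, as did those of Tgfbr1 and Smad3 and of Smad3 and Tgfb1, so these neighbours did not differ beyond their spread. In microglia the order was Csf1r 2947, Cx3cr1 1567, Nrros 223, Tgfbr1 111, Tgfbr2 98.8, Smad3 17.8, Smad7 2.98 and Tgfb1 1.93 CPM per kilobase, with Tgfbr1 and Tgfbr2 overlapping and Smad7 and Tgfb1 overlapping. The ratio of Tgfbr1 to Tgfbr2 per kilobase was 0.0866, 0.121 and 0.108 in WT, Het and KO macrophages and 0.940, 1.46 and 1.05 in WT, Het and KO microglia. Over pools it ran from 0.00958 to 0.141 in macrophages and from 0.847 to 1.64 in microglia. The type I receptor was thus the scarcer of the pair in all 8 macrophage pools, and the pair was near parity in microglia.

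Markers of each cell type were also present in the other, and their part in these differences was not tested. Microglia markers in macrophages stood at 1.24% of their microglial level for Tmem119, 1.84% for Sall1, 2.01% for Sparc, 5.81% for P2ry12, 18.0% for Gpr34 and 24.0% for P2ry13. Fcrls, on the same marker list, did not drop like these. At 4571 CPM it gave most of the 6099 CPM of the microglia marker sum in macrophages. Tgfbr1 stood at 11.5%, Cx3cr1 at 29.0% and Smad3 at 36.1%, above Tmem119 and Sall1, and Smad7 at 0.447%, below them. Cells were also restricted to those whose own marker sum exceeded the other type's at least 2-fold, with 10 CPM added to each sum, which left 377 macrophages and 127 microglia. Ratios used only pools that kept at least 10 of these cells. WT microglia of plate 529s, the pool with the smallest Smad3 difference, thereby fell out. WT macrophages of plate 529s stayed in, so the sums of the types did not cover the same pools. Over these sums the log2 ratio was 3.35 for Tgfbr1, 2.04 for Cx3cr1, 1.23 for Smad3, 4.36 for Smad7, 0.47 for Csf1r, -0.33 for Tgfbr2 and -0.32 for Nrros. Each of these 7 genes kept its direction.

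Across single cells, Csf1r, Cx3cr1, Tgfbr2 and Nrros were found in nearly every cell of both types, and Tgfbr1 in nearly every microglial cell only. Microglia were the deeper cells, with a median of 246554 counts against 197196, so each cell was thinned to 50000 counts, which left out 25 macrophages and 10 microglia. Tgfbr1 was then found in 36.8% of macrophages (31.9% to 41.9%) and 99.0% of microglia (96.5% to 99.9%), against 53.3% and 99.5% before thinning. Smad3 was found in 11.7% (8.66% to 15.4%) and 46.8% (39.8% to 53.9%), against 19.5% and 55.3%. These intervals did not overlap between the types. Smad7 was found in 0.267% of macrophages (0.00675% to 1.48%) and 18.5% of microglia (13.5% to 24.5%), against 1.75% and 23.7% before. Tgfb1 was found in 11.7% (8.66% to 15.4%) and 13.2% (8.86% to 18.6%), which overlapped. Snap25, a neuronal gene that neither type should express, was found in 6.67% of thinned macrophages and 8.29% of thinned microglia. Cldn5, an endothelial marker, was found in 1.60% (0.589% to 3.45%) and 1.95% (0.534% to 4.92%), so the background depended on the gene. The Smad7 share of macrophages was below that of Snap25, and its interval overlapped that of Cldn5. Its share of microglia was above both. The Tgfb1 intervals overlapped those of Snap25 in both types (4.36% to 9.68% in macrophages and 4.91% to 12.9% in microglia). They lay above those of Cldn5, so Tgfb1 shares were clear of the lower background but not of the higher. The Smad3 share of macrophages had the same interval as that of Tgfb1 and stood likewise to both genes. Its share of microglia lay above both.

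**Figure D3:**
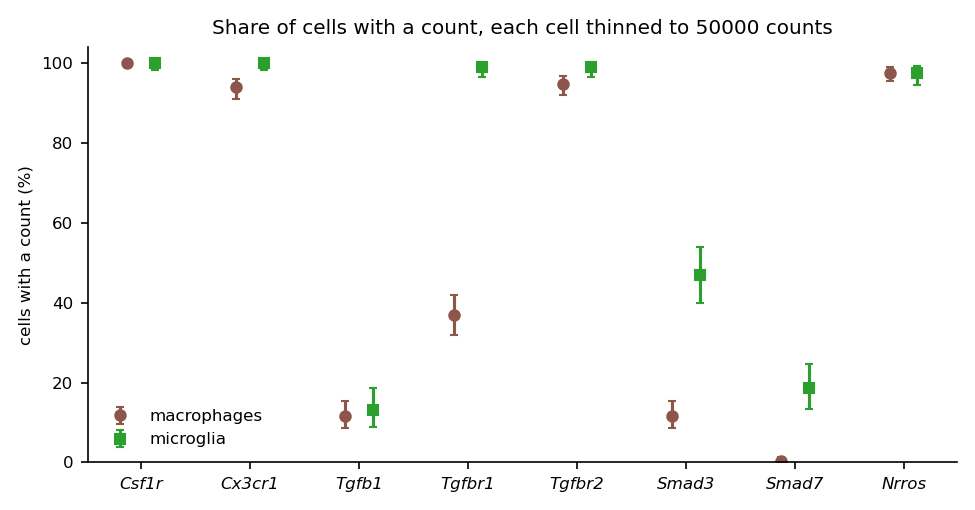
Share of cells with at least 1 count for each gene after thinning every cell to 50000 counts, in 375 macrophages and 205 microglia, with exact 95% binomial intervals. Tgfbr1, Smad3 and Smad7 separate the types, whereas Csf1r, Tgfbr2 and Nrros are found in over 90% of cells of both.

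The spread from cell to cell differed between the types for Cx3cr1 and Tgfbr1. The quartiles of Cx3cr1 were 523, 1571 and 3217 CPM over macrophages and 4869, 6607 and 8488 CPM over microglia. Some macrophages came up to microglial levels, the highest at 8909 CPM. Tgfbr1 had a median of 1.67 CPM and an upper quartile of 49.7 CPM over macrophages, with a highest cell at 1505 CPM. Over microglia its quartiles were 427, 670 and 1009 CPM. Tgfbr1 in macrophages was thus carried by a minority of cells. Tgfbr2 was even by comparison, with quartiles of 483, 978 and 1554 CPM over macrophages and 511, 770 and 1139 CPM over microglia.

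Correlations from cell to cell were taken among Csf1r, Cx3cr1, Tgfbr2 and Nrros in macrophages and among these and Tgfbr1 in microglia. The highest Spearman correlations were 0.20 between Csf1r and Tgfbr2 over 400 macrophages and 0.20 between Csf1r and Cx3cr1 over 215 microglia. Both values are too weak to read, although these genes had counts in nearly every cell. Inside single pools, some of 15 or 16 cells, the values scattered more widely, from -0.65 for Cx3cr1 and Tgfbr2 to 0.66 for Tgfbr2 and Nrros, both in microglia. Cx3cr1 went with the sum of the 10 microglia markers, none of which is among the 8 genes. Its Spearman correlation with that sum was 0.60 over microglia, with 0.49 to 0.76 inside the 8 pools, and 0.34 over macrophages. For Tgfbr1 it was 0.38 over microglia, above 0 in 7 of 8 pools, and 0.19 over macrophages. In macrophages the marker sum was mostly Fcrls, with 4571 of 6099 CPM. Against the sum of the perivascular macrophage markers, Cx3cr1 and Tgfbr1 both gave -0.35 over microglia, while Tgfbr2 gave 0.22 and Nrros 0.23. The points share their libraries and totals, so these values describe the cells and were not tested.

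**Figure D4:**
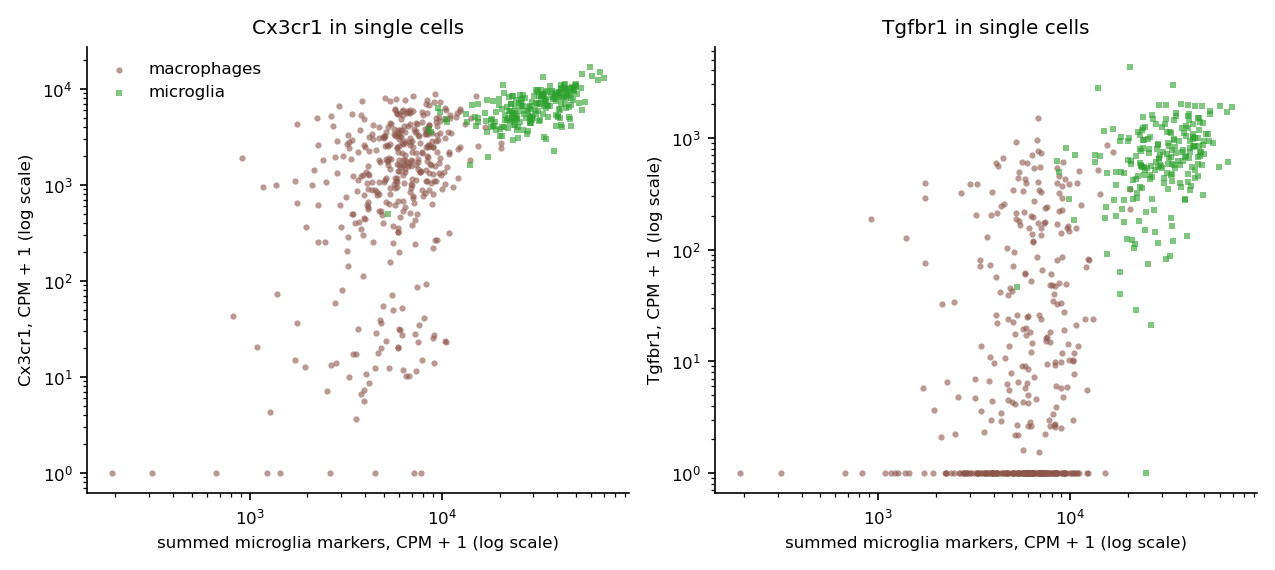
Cx3cr1 (left) and Tgfbr1 (right) against the summed CPM of 10 microglia markers in each of 400 macrophages and 215 microglia, both axes CPM + 1 on log scales. Microglia form a compact group at high values of both genes, and macrophages spread from 0 to 8909 CPM for Cx3cr1 and from 0 to 1505 CPM for Tgfbr1, where 187 of them are at 0.

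Counts of the receptor pair met in 52.3% of macrophages (47.2% to 57.2%) and 99.5% of microglia (97.4% to 100%). Among macrophages without a Tgfbr1 count, 183 of 187 still held Tgfbr2. Every cell with Tgfb1 also held Nrros, 58 macrophages and 49 microglia, where Nrros was near ubiquitous. Smad3 and Smad7 met in 1 macrophage and in 33 microglia. In thinned microglia Smad7 was found in 22.9% of 96 cells with Smad3 and in 14.7% of 109 without, and no test was run on this difference.

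The rest of the pathway was described with lists that hold none of the 8 genes. Of 9 other TGF-beta superfamily receptors, 3 were measured, and endoglin (Eng), a co-receptor, was called 4.14-fold higher in microglia. The median log2 ratio of the 3 was 1.37. Of 14 other genes for ligands, latency and activation, 4 were measured with a median of 0.81. Integrin beta 5 (Itgb5) was called 4.23-fold higher in microglia at 633 CPM against 149 CPM. Itgb8, whose integrin activates the ligand held by Nrros, had 0.619 CPM over macrophages against 0.124 CPM over microglia, and Lrrc32, the relative of Nrros in other cells, had 0.0172 and 0 CPM.

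Among the other 6 Smad genes, 4 were measured and none was called, with a median log2 ratio of 0.25. Smad2, the partner of Smad3, had 40.3 CPM over macrophages and 57.6 CPM over microglia. The shared Smad4 was at 29.5 CPM in both. Of 14 Smad regulators, 11 were measured, 2 were called higher in microglia and 0 lower, with a median of 0.76. Both are membrane proteins that bind Smads and are induced by the pathway: Pmepa1 was 5.86-fold higher, at 84.2 CPM against 13.5 CPM, and Ldlrad4 was 4.33-fold higher, at 51.6 CPM against 11.2 CPM. Of 14 response genes other than Smad7, 7 were measured. Pmepa1 and Ldlrad4 again were the 2 called higher, and Tgfbi, a secreted matrix protein named for its induction by TGF-beta, was called lower, at 817 CPM in microglia against 1743 CPM in macrophages. Genes known from textbook work to need TGF-beta in microglia were mostly higher: 11 of 16 were called, led by Tmem119, Olfml3, Sparc, Sall1 and Slc2a5 at 79.5-fold to 33.2-fold, and the median log2 ratio was 3.05. All 10 microglia markers used to check the cell labels are on this list, and 9 of them are among the 11 called, so the count and the check of the labels rest largely on the same genes. Of the 16, 5 were not called. Fcrls, Mertk, C1qa and Pros1 were at ratios of 1.24-fold, 1.61-fold, 1.09-fold and 1.19-fold, and Gas6, a ligand of the receptor Mertk, had the opposite sign, with 1688 CPM in microglia and 3268 CPM in macrophages.

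**Figure D5:**
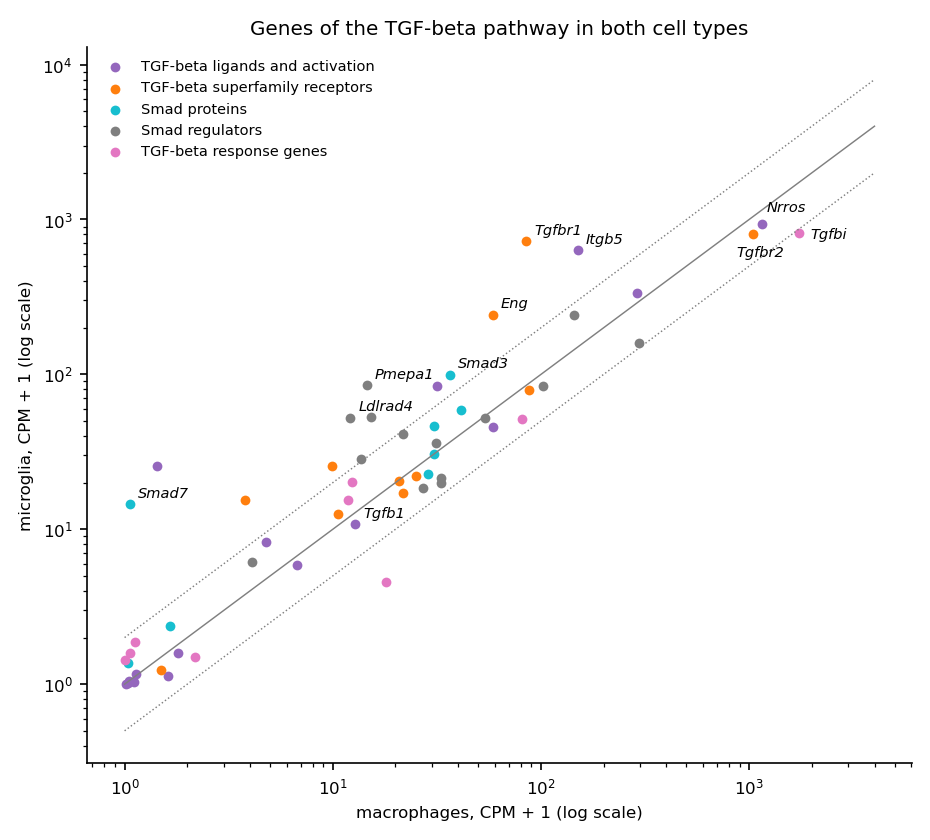
CPM + 1 in microglia against macrophages, on log axes, for the genes of 5 TGF-beta lists, with the solid line at equal levels and dotted lines at 2-fold. Named points are called genes and the 6 members of the pathway: Tgfbr1, Itgb5, Eng, Pmepa1, Ldlrad4, Smad3 and Smad7 lie above the upper line, Tgfbi below the lower line, and Tgfbr2, Nrros and Tgfb1 between.

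For the partners of the other receptors few calls were made. Of 18 other genes of the Csf1r axis, 13 were measured and only Csf3r, a granulocyte growth factor receptor, was called, 4.71-fold higher in microglia. The median log2 ratio was -0.11, with 6 genes above 0 and 7 below. Inpp5d, a lipid phosphatase, stood at 1.97-fold and the transcription factor Irf8 at 1.66-fold, whereas the cytokine receptor chains Csf2ra and Csf2rb stood at 0.597-fold and 0.619-fold, all short of the limit. The adaptor Tyrobp was at 936 and 853 CPM and the transcription factor Spi1, which encodes PU.1, at 453 and 491 CPM in macrophages and microglia. The ligand genes Csf1 (1.65 and 4.13 CPM) and Il34 (0.00860 and 0.0688 CPM) were low in both types. Of 6 other genes of the fractalkine axis, 5 were measured and 0 were called.

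The study compared Notch3 knockout with control cells. In neither cell type was any of the 8 genes apart in KO by the rule used, which asked for a 2-fold difference from WT and from Het in the same direction, with no overlap between the 2 KO pools and the 6 control pools. Over all genes 0.948% of 5483 measured genes in macrophages and 0.795% of 6796 in microglia met it. Plates 056s, 059s, 060s and 530s each held 1 genotype, so plate and genotype cannot be told apart there.

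Nrros came nearest to a KO pattern. Its WT microglia pools were at 702, 967 and 756 CPM on plates 059s, 529s and 530s, its Het pools at 992, 940 and 967 CPM on plates 056s, 524s and 529s, and its KO pools at 1061 and 1184 CPM on plates 060s and 524s. Both KO pools were above every control pool, a separation that 2.77% of measured genes showed in microglia in that direction. The size was small, at log2 ratios of 0.60 against WT and 0.21 against Het, and with Rn18s in the totals the second became -0.0017. In macrophages Nrros was at 1030, 1221 and 1037 CPM in WT pools, 1144, 1735 and 1214 CPM in Het pools and 1470 and 1311 CPM in KO pools. Here the Het pool of plate 524s was highest, so the groups overlapped, and none of the 8 genes had both KO pools above all controls, against 2.66% of measured genes.

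The summed level of Csf1r was somewhat higher in KO, but its pools did not separate from the controls. Its macrophage pools were at 10914, 12073 and 14209 in WT, 10971, 15961 and 13988 in Het and 15890 and 15148 CPM in KO. KO lay above all WT pools but inside the Het range, with log2 ratios of 0.28 against WT and 0.45 against Het. Of measured genes, 76.5% and 78.5% had ratios no higher. With single plates left out, the ratio against Het fell as low as 0.07. How many genes have both KO pools above all WT pools was not counted. In microglia the values were 14875, 16324 and 18914 in WT, 13542, 22521 and 21969 in Het and 20128 and 18366 CPM in KO. Here KO overlapped both, and the log2 ratios were 0.27 and 0.20, with 74.1% and 64.3% of measured genes no higher. Inside plate 524s, which held both Het and KO cells, KO was below Het in both types, by log2 ratios of -0.08 in macrophages and -0.29 in microglia.

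Cx3cr1 did not follow genotype. Macrophage pools were at 2351, 1261 and 2303 in WT, 1706, 1472 and 1882 in Het and 1938 and 2840 CPM in KO. Microglia pools were at 7576, 5550 and 6249 CPM, 6233, 7748 and 8827 CPM, and 6360 and 7603 CPM in the same order. Genotypes overlapped in both types, and over all cells microglia were at 7077, 7037 and 7058 CPM in WT, Het and KO.

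Neither receptor was called between genotypes in either type. Tgfbr1 was at 642, 685 and 642 CPM in WT microglia pools, 786, 908 and 817 CPM in Het and 944 and 575 CPM in KO. The 3 Het pools lay above the 3 WT pools, and the KO pools lay on either side of both. The log2 ratio of Het over WT was 0.32, and 75.5% of measured genes had a ratio no higher. How many genes separate these pools without a 2-fold limit was not counted, so no genotype difference is read from this. In macrophages Tgfbr1 was at 89.4, 41.2 and 72.0 in WT, 100, 8.90 and 26.4 in Het and 112 and 59.7 CPM in KO. The Het level rested on plate 056s, where 1 cell held much of it: the top cell of all Het macrophages gave 37.5% of their Tgfbr1 counts. The log2 ratio of Het over WT was 0.25 and became -1.997 without that plate. Tgfbr2 pools lay between 602 and 1209 CPM in all genotypes of both types, and its widest log2 ratio between genotypes was 0.35, for KO over Het microglia.

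Smad3 was the only one of the 8 genes called between Het and WT, and it was lower in Het macrophages. Its WT pools were at 40.8, 81.2 and 56.1 CPM and its Het pools at 15.2, 0 and 2.60 CPM on plates 056s, 524s and 529s. The 2 groups did not overlap. Het macrophages held Smad3 in 7 of 70 cells, against 54 of 211 WT cells, and the pool at 0 had 16 cells, where 3 counts would make 1.21 CPM. The log2 ratio was -1.92. By this rule, 2-fold and no overlap of 3 against 3 pools, 2.34% of 5337 measured genes were called in macrophages, 42 higher and 83 lower in Het, and 62 and 21 with Rn18s in the totals. The call was near the limits of the rule: 25.6% of WT macrophages had a Smad3 count, and without plate 059s or 530s, or in thinned cells, the share was 24.4%, 23.3% or 14.6%, so the gene was no longer counted as measured. The log2 ratio stayed below 0 in all 24 alternatives. In thinned cells Smad3 was found in 4.55% of Het macrophages (0.947% to 12.7%) and 14.6% of WT macrophages (10.0% to 20.1%). Snap25 was found in 7.58% and 6.31%, and Cldn5 in 0% (0% to 5.44%) and 1.46% (0.301% to 4.20%). The Het share was not clear of either gene. The WT interval overlapped that of Snap25, which reached 10.5%, and lay above that of Cldn5. A single cell gave 54.7% of the Het counts.

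The KO macrophage pools of Smad3 split, at 4.42 CPM on plate 060s and 84.2 CPM on plate 524s. The lower KO pool lay between Het pools and the higher one above every control pool. The log2 ratio of KO over WT was -1.05, and it became 0.65 without plate 060s and -3.32 without plate 524s. In microglia Smad3 was at 114, 83.8 and 72.5 in WT, 68.8, 27.1 and 141 in Het and 69.2 and 151 CPM in KO, with overlap. On plate 524s, Het cells were low and KO cells high in both types.

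Tgfb1 and Smad7, both under the floor, had the widest genotype ratios in microglia. Tgfb1 was at 10.7, 14.0 and 6.74 CPM in WT microglia pools, 1.49, 2.03 and 3.63 CPM in Het and 32.3 and 7.95 CPM in KO. Het pools were below all others, with 52 counts in 11 of 58 cells, and the log2 ratio of Het over WT was -1.88. These pools rested on few cells. The top cell gave 87.5% of 24 counts on plate 056s, 66.7% of 6 on plate 524s and 31.8% of 22 on plate 529s. In KO cells of plate 524s it gave 87.6% of 89 counts. None of the 8 genes was called between Het and WT microglia, against 3.03% of 6601 measured genes, and Tgfb1 was called lower when the floor was 5 CPM or absent. At a floor of 5 CPM, 112 of 7645 genes were called higher and 116 lower in Het microglia. In macrophages Tgfb1 went the other way in the sums, with WT at 7.85 CPM and Het at 19.4 CPM, but plate 056s gave 729 of the 756 Het counts. Smad7 was at 21.4, 9.66 and 11.1 CPM in WT microglia, 4.10, 12.5 and 14.0 CPM in Het and 15.8 and 14.0 CPM in KO, with overlap. Its share of cells was 21.5%, 29.3% and 21.8% in WT, Het and KO microglia, and the exact intervals overlapped.

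Of the other TGF-beta genes, none in the lists of receptors, ligands and activation, Smads, Smad regulators and response genes was called between genotypes in either type. Csf2rb, a cytokine receptor chain in the Csf1r list, was called lower in Het microglia. Interferon-response genes and immediate early genes moved with pools: their sums ran from 751 to 3241 CPM and from 520 to 5023 CPM over macrophage pools, with the highest interferon sum in Het cells of plate 529s and the highest immediate early sum in WT cells of plate 529s. Their part in the values of the 8 genes was not tested.

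Genes whose level followed each of the 8 most closely were taken by Pearson correlation of log2(CPM + 1) over the 16 pools of both types. Of these, 8 are of each type, so a gene that separates the types scores high with any other that does, and the value inside each type is given beside it. Cx3cr1 was most like Olfml3, with 0.98 over 16 pools, 0.84 over the 8 macrophage pools and 0.74 over the 8 microglia pools, followed by Abi3. Tgfbr1 was most like Siglech, with 0.97, 0.88 and -0.05 in the same order, followed by Pde3b and P2ry13. Its likeness to Siglech was thus absent among microglia pools. Csf1r was most like Sirpa, with 0.91, 0.87 and 0.83, and then Tcirg1 and Atp13a1. Tgfbr2 was most like Sptlc1, with 0.89, 0.85 and 0.87, and then Sec14l1 and Grina. Nrros was most like Trf, with 0.85, 0.75 and 0.75, and then Stab1 and Slc29a1. Smad3 was most like Casd1, with 0.89, 0.91 and -0.39, and then Usp2 and Plcg1. Smad7 was most like Myo18b, with 0.97, -0.22 and 0.34, and then Olfml2b and Plxdc1. Tgfb1 was most like Rcbtb1, with 0.77, 0.81 and 0.76, and then Cnot1 and Usp3. These are the best of all measured genes and describe the pools alone.

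The 14 cells of type 7 held the same receptors. Csf1r was at 12828 CPM with counts in all 14 cells, and Cx3cr1 at 2513 CPM, also in all 14. Tgfbr2 was at 858 CPM in 11 cells, Nrros at 1049 CPM in 12 and Tgfbr1 at 147 CPM in 8. Cx3cr1 and Tgfbr1 were thus nearer to the macrophage levels. Smad7 was instead nearer to the microglial level, at 24.9 CPM (15.0 to 38.9). It rested on 19 counts in 4 of the 14 cells, 73.7% of them in 1 cell. Smad3 had 6 counts in 3 of the cells and Tgfb1 1 count in 1 cell. These cells were shallow, and for Nrros 1 cell gave 74.8% of the counts.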

How the data were processed

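The deposited table holds whole-number counts made by the authors, 1 column per cell for 629 cells, with 53546 gene symbols and 92 ERCC spike-in rows. The submitters' processing notes name the aligner STAR. Its version, the counter, annotation, build and cell filters are not given in the sources used here. Every column matched a labelled cell, and 0 were left without one.

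For each group the counts of its cells were added and scaled to CPM without ERCC (1.22% of all counts) and Rn18s (40.4%). Rn18s was left out because its share differed between pools, and totals with it are an alternative. Ratios are on CPM + 1. The rules for measured and called genes stand in the report. Scripts used Python 3.11.15, pandas 2.3.3, numpy 2.4.6, scipy 1.17.1 and matplotlib 3.10.9, and the call rules were tested on simulated data. Alternatives used edgeR 4.0.16 TMM factors and DESeq2 1.42.0 size factors in R 4.3.3, other floors, pseudocounts and fold limits, thinned cells, each plate left out and single plates. Upstream sequences are from RefSeq on GRCm38.p6, and exon lengths and overlaps from GENCODE M21, which may not be the authors' annotation.

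All 8 genes are named. In the other lists called genes are named, up to 5 a list by size, and otherwise the 2 most abundant. Smad2, Smad4, Itgb8, Lrrc32, Csf1, Il34, Fcrls, C1qa, Mertk, Pros1, Gas6, Inpp5d, Irf8 and Csf2ra were added after their values were seen. For likeness the 3 highest correlations are named, except 1 that is not reported here. The genes, lists and rules were chosen with earlier results of these data known.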

Additional observations from a re-analysis of the deposited data

How the results depend on the processing

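The number of genes called higher in microglia stayed between 2 and 4 over 23 alternatives: Cx3cr1 and Tgfbr1 were called in all 23 and Smad3 in 21, and 0 were called lower in each. Between genotypes the counts moved with plates and floors. KO macrophages gave 1 gene (Smad3, lower) on plates 056s, 059s and 060s alone and 2 (Tgfbr1 and Smad3, higher) for KO against Het inside plate 524s, where KO microglia gave 1 (Smad3, higher). Over all genes, 152 of 6357 were higher and 331 lower in KO macrophages on plates 056s, 059s and 060s alone. Inside plate 524s, where the 2-fold limit alone applied, 1075 of 5292 were higher and 1105 lower in KO macrophages. In KO microglia there, 934 of 6628 were higher and 886 lower. Het macrophages gave 0 with thinned cells, 0 inside plate 529s, 0 to 2 with each plate left out (2 without 056s, where Tgfbr1 joined Smad3) and 2 (Tgfb1 higher, Smad3 lower) on plates 056s, 059s and 060s alone. Inside plate 529s Smad3 was at 81.2 CPM in WT and 2.60 CPM in Het, but 11.5% of WT cells held it, under the detection limit. On plates 524s, 529s and 530s alone the 1 gene was Tgfbr1 (lower). Smad3 was there at its widest log2 ratio, -4.68, with 59.2 CPM in WT and 1.36 CPM in Het, but 24.4% of WT cells held it, under the detection limit. Het microglia gave 1 (Tgfb1) at a floor of 5 CPM, 1 (Tgfb1) with no floor and 1 (Smad7) on plates 056s, 059s and 060s alone. Settings that use few plates have fewer pools to overlap, and otherwise the cause was not tested. Over all genes the number called ran from 361 to 809 (404 as reported) between the cell types, 25 to 683 (52) for KO macrophages, 62 to 1570 (125) for Het macrophages, 26 to 534 (54) for KO microglia and 115 to 1816 (200) for Het microglia. With Rn18s in the totals the median log2 ratio of Het over WT macrophages went from 0.02 to 0.51, that of KO over Het macrophages from -0.07 to -0.50 and those of KO microglia over WT and Het from -0.04 to -0.20 and from 0.01 to -0.20. No paired analysis was possible because no test was run and the labels give no replicate numbers, cells being numbered in accession order. Ratios between types inside each pool, and between genotypes inside plates 524s and 529s, are given without a test. Depth limits Tgfb1, Smad3 and Smad7, which most cells held at 0 in macrophages.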
